A study of Sorghum bicolor with 12 samples.

Results

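The 135 loci described here were transcribed in leaves of sorghum (Sorghum bicolor) and are listed by the authors' deposited table under identifiers of their own, outside the reference gene annotation. They are called assembled loci here because the submitters' processing notes name StringTie, a program that assembles transcripts from reads, although no source used here states how these loci were made. They were chosen from the deposited count table as the assembled loci whose mean raw count over the 12 libraries was 100 or more. The table holds 33897 genes, of which 946 are assembled loci, so 811 assembled loci fell under the threshold, and 13062 of the 32951 annotated genes reached it. Each locus is named here by the running number that the deposited table gives it. Since the mean count chose the loci, that they are well counted is not a finding. Just inside the threshold lay locus 64 (mean count 100.9) and locus 695 (101), and just outside lay locus 83 (99.4) and locus 718 (99.2). The cultivars were Sanchisan (SCS) and Jinliang 5 (JL), and leaves of each were sampled with a normal water supply, called control below, or under drought stress. Each of the 4 groups (SCS control, SCS drought, JL control, JL drought) has 3 libraries. The labels give neither the length of the drought nor the leaf age. They also do not say that the 3 libraries of each group were taken from separate plants, and p-values then cover the spread between these libraries alone, which may be technical.

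A reference annotation lists the genes predicted or observed when it was built, and assembly of RNA-seq reads adds transcripts at places it leaves blank. Such transcripts can be long noncoding RNAs, missed protein-coding genes, extended or read-through ends of neighbouring genes, or copies of transposable elements, which make up most of the sorghum genome. Retrotransposons copy themselves through an RNA made into DNA by reverse transcriptase, DNA transposons move by a transposase, and plants silence most copies by DNA methylation.

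Library totals ranged from 15039990 to 18356604 counts. Factors of the TMM method, which scales counts to a common library size, were 1.012 to 1.411 in SCS and 0.757 to 0.926 in JL. Scaled levels are thus lowered in SCS and raised in JL relative to raw counts, and differences between the cultivars depend on this scaling. The labelled tissue was checked on 45 genes of C4 leaf photosynthesis, which summed to 43963 to 114253 CPM (counts scaled to a common library size by the TMM method) in SCS control and 10443 to 32804 in SCS drought, against 136888 to 252101 in JL control and 171648 to 265703 in JL drought. Of 39 seed genes, 26 had no count in any library, and the rest summed to 67.8 to 373 CPM in SCS drought against 10.2 to 37.8 in the other groups. Of 7 root genes, 2 were at 0 throughout, and the sum was 46.8 to 146 CPM in SCS drought against 200.2 to 778 elsewhere. Mean counts were under 10 for 33 of the seed genes and 5 of the root genes. Sums overlapped for 35 genes of dividing tissue (113 to 273 CPM in SCS drought, 123 to 293 elsewhere) and 38 of pollen (167 to 239 and 110 to 254). The SCS drought libraries thus differ from the rest in the leaf, seed and root lists as well, and the part of this in the results below was not tested. Fewer cells of a type and less RNA per cell cannot be told apart in bulk leaf RNA. Libraries 1 and 2 of SCS drought had 17 and 12 of the 135 loci at a count of 0 and library 2 of JL drought had 9, while the other 9 libraries had 1 to 7. Counts of calls are therefore also given without these 3 libraries.

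The 135 loci were spread over all 10 chromosomes, from 9 on chromosome 8 to 20 on chromosome 1, with 65 on the plus and 70 on the minus strand. Their median length was 2354 bases (416 to 19389), against 1920 for annotated genes at the same threshold. In 22 loci (16.3%) the length equalled the genomic span, so that they were assembled as 1 exon, against 8.57% of those annotated genes. The deposited table gave a Swiss-Prot protein match for 44 loci and a Pfam domain for 15. By these texts 21 loci resembled transposon proteins, 24 resembled other proteins and 90 had no match, a grouping made after the descriptions had been seen.

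The transposon-type group held retrotransposon polyproteins of the copia and gypsy types, LINE-type reverse transcriptases, ribonuclease H proteins and a transposase of the maize Activator family. These loci were long, with a median of 6258 bases, and had a median FPKM (a level per length and library size, as deposited) of 2.56. Loci matching other proteins had a median FPKM of 10.2 and those with no match 7.48. Over all 135 the median FPKM was 7.43 (interquartile range 3.85 to 13.9), against 13.2 for annotated genes and 8.18 for annotated long noncoding RNA genes at the same count threshold. A count threshold admits longer genes at a lower FPKM, so these medians describe the lists and were not tested. The treatment of reads shared by near-identical copies was not given in the sources used here. Values of the transposon-type loci are therefore uncertain.

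**Figure D1:**
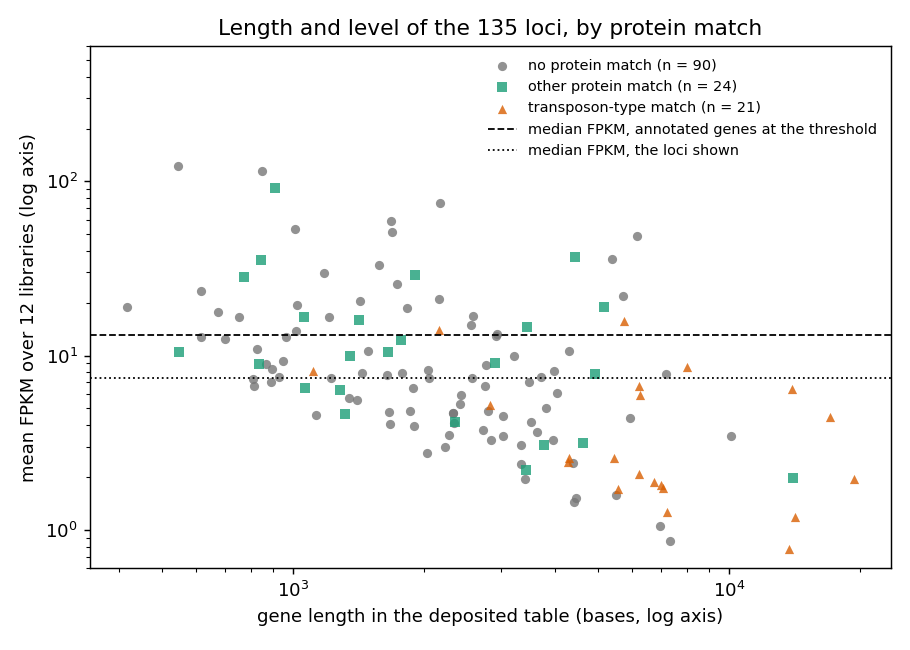
Each point is 1 of the 135 loci, placed by its length in bases and its mean FPKM over 12 libraries, both on log axes, with the type of protein match shown by colour and shape. The transposon-type loci have a median of 6258 bases and an FPKM of 2.56, with exceptions such as locus 785 (1110 bases, FPKM 8.14), and the dashed and dotted lines mark the median FPKM of annotated genes (13.2) and of the 135 loci (7.43).

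None of the 135 loci overlapped an annotated gene. The median gap to the nearest annotated gene was 2321 bases, the shortest 0 and the longest 194128, with 30 loci more than 10000 bases away. For 64 loci the nearest annotated gene lay within 2000 bases. Of these, 23 were on the same strand as that gene, 9 of them downstream and 14 upstream of it, while 41 were on the opposite strand, 26 with the ends facing and 15 with the starts facing. In addition, 7 loci overlapped another assembled locus on the opposite strand, whose mean count was 0 to 29.3. The kit kept the strand, but the strand setting of the counting is not given, so reads of such pairs cannot be told apart.

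The loci took 0.315 to 0.597% of the counts of a library. Of the 135 loci, 119 reached a mean count of 100 in SCS control and 107 in SCS drought, against 101 in JL control and 105 in JL drought. In all 4 groups 74 loci did so, and 10 did so in 1 group only. These are the raw counts that chose the loci, and they are not scaled for depth. Library totals were 17383574 to 18356604 counts in SCS control and 15039990 to 16072003 in the other groups. A mean count of 100 was thus easier to reach in SCS control, and no such numbers are given for annotated genes. Differences between groups in these numbers are therefore not a finding about the loci. By mean CPM, the lowest of the 4 groups was SCS drought for 62 loci, SCS control for 25, JL control for 22 and JL drought for 26. The highest group was spread more evenly, with SCS drought highest for 37 loci, JL control for 36 and each of the other groups for 31. The lowest and highest groups were not counted for annotated genes, so these numbers describe the list and are not a finding about the loci.

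The spread between libraries of a group was set beside that of annotated genes. The median SD within a group, on log2(CPM + 0.5), was 0.41 in SCS control and 0.73 in SCS drought, with 0.37 in JL control and 0.68 in JL drought, for the 135 loci, against 0.33, 0.46, 0.32 and 0.50 for annotated genes at the threshold. The highest library exceeded the lowest at least 5-fold for 31.1% of the loci in SCS drought and for 31.1% in JL drought, against 14.01% and 17.9% of those annotated genes. Annotated long noncoding RNA genes at the threshold had 22.7% and 17.0%, with a median SD of 0.61 in SCS drought and 0.45 in JL drought. The median of the mean counts was 229 for the loci, 261 for these long noncoding RNA genes and 423 for the annotated genes. These are descriptions of the lists, and the difference was not tested.

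The most counted locus was 703, with no protein match (chromosome 8, 55707395 to 55714687, plus strand, 6145 bases). Its level was 82.8, 93.9 and 170.3 CPM in the 3 SCS control libraries and 67.7, 109 and 32.9 in SCS drought, against 663, 548 and 293 in JL control and 282, 729 and 567 in JL drought. Every JL library lay above every SCS library, with means of 502 ± 189.7 CPM in JL control and 116 ± 47.6 in SCS control (SD, n = 3). Next came locus 58 (chromosome 1, 885748 to 891149, minus strand), also with no match and of 1 exon, at 163 ± 29.4, 212 ± 96.4, 213 ± 37.9 and 202 ± 58.2 CPM in SCS control, SCS drought, JL control and JL drought. Its groups overlapped throughout. Per length, the highest was locus 328 (chromosome 3, 57383213 to 57383844, minus strand, 545 bases, no match), which averaged 122 FPKM over the 12 libraries, ahead of locus 195 with 115. Locus 342, whose match is a small cysteine-rich transmembrane protein of a family linked to stress in Arabidopsis, averaged 91.6 FPKM.

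Of other abundant loci, locus 347 (chromosome 4, 3315569 to 3321360, plus strand, no match, 5711 bases) gave 94.4 ± 37.2, 161 ± 71.2, 126 ± 19.6 and 129 ± 45.1 CPM in SCS control, SCS drought, JL control and JL drought, and its groups overlapped. Locus 494 (chromosome 5, 2488744 to 2490595, minus strand, no match) had 50.4, 69.3 and 66.5 CPM in SCS control and 139.6, 125 and 153 in SCS drought, which do not overlap, yet its change was not called (log2 fold change 1.16 ± 0.34, SE, edgeR adjusted p = 0.0584). In JL it stood at 111 ± 49.8 CPM in control and 92.2 ± 27.5 in drought.

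In 24 of the 135 loci (17.8%) a library had 0 counts although another library of the same group had 100 or more. The same held for 310 of 13062 annotated genes at the threshold (2.37%), for 1.86% of the protein-coding ones and for 64 of 352 annotated long noncoding RNA genes (18.2%). The loci named for their zeros were chosen after their values had been seen, except locus 48. Locus 48 (chromosome 1, 69339602 to 69344860, plus strand), which resembles an Arabidopsis lysine and histidine transporter, had raw counts of 2246, 2007 and 2597 in SCS control and 3571, 9204 and 2401 in SCS drought, against 1819, 2279 and 2759 in JL control and 1891, 0 and 2795 in JL drought. Thus 11 libraries held 1819 reads or more and library 2 of JL drought none.

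That library was the only one at 0 for 3 more loci. The first, locus 612 (chromosome 7, 37722692 to 37726037, plus strand), resembles the transposase of the maize Activator element and had raw counts of 869, 877 and 775, 579, 593 and 689, 312, 359 and 641 and 272, 0 and 515 in the same order of groups. The others, 276 and 606, have no match.

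Libraries 1 and 2 of SCS drought were both at 0, with every other library above 0, for loci 172, 577, 376 and 697. Locus 172 (chromosome 2, 74666238 to 74672461, plus strand), a gypsy-type retrotransposon by its match, had raw counts of 745, 570 and 847, 0, 0 and 1077, 624, 681 and 594 and 451, 1476 and 635. The third SCS drought library held more reads than any SCS control library here. Locus 577 (chromosome 6, 32254138 to 32255784, minus strand, no match) had 338, 416 and 367, 0, 0 and 313, 172, 180 and 261 and 169, 151 and 221 raw counts, again with reads in 10 libraries and none in those. Library 1 of SCS drought alone was at 0 for loci 579, 486 and 548.

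No locus of the 135 was at 0 in all 6 libraries of a cultivar. Of the 24 loci, 671 and 669 were at 0 in all 3 SCS drought libraries and 881 in all 3 SCS control libraries, each also at 0 in libraries of other groups. Between libraries of the same group, 0 to 8 loci (median 4) were at 0 in one and at 100 counts or more in the other, against 1 to 17 (median 5.5) between libraries of different groups. For annotated genes at the threshold the numbers were 5 to 145 (median 48.5) and 12 to 214 (median 85.5). A few loci were instead high in 1 library. Locus 881 had 2084 counts in library 2 of JL drought, 75 in library 1 of JL control and 0 to 3 in the other 10, and was the single locus that failed the expression filter. Locus 669 had 1194 counts in the same library and at most 22 elsewhere.

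**Figure D2:**
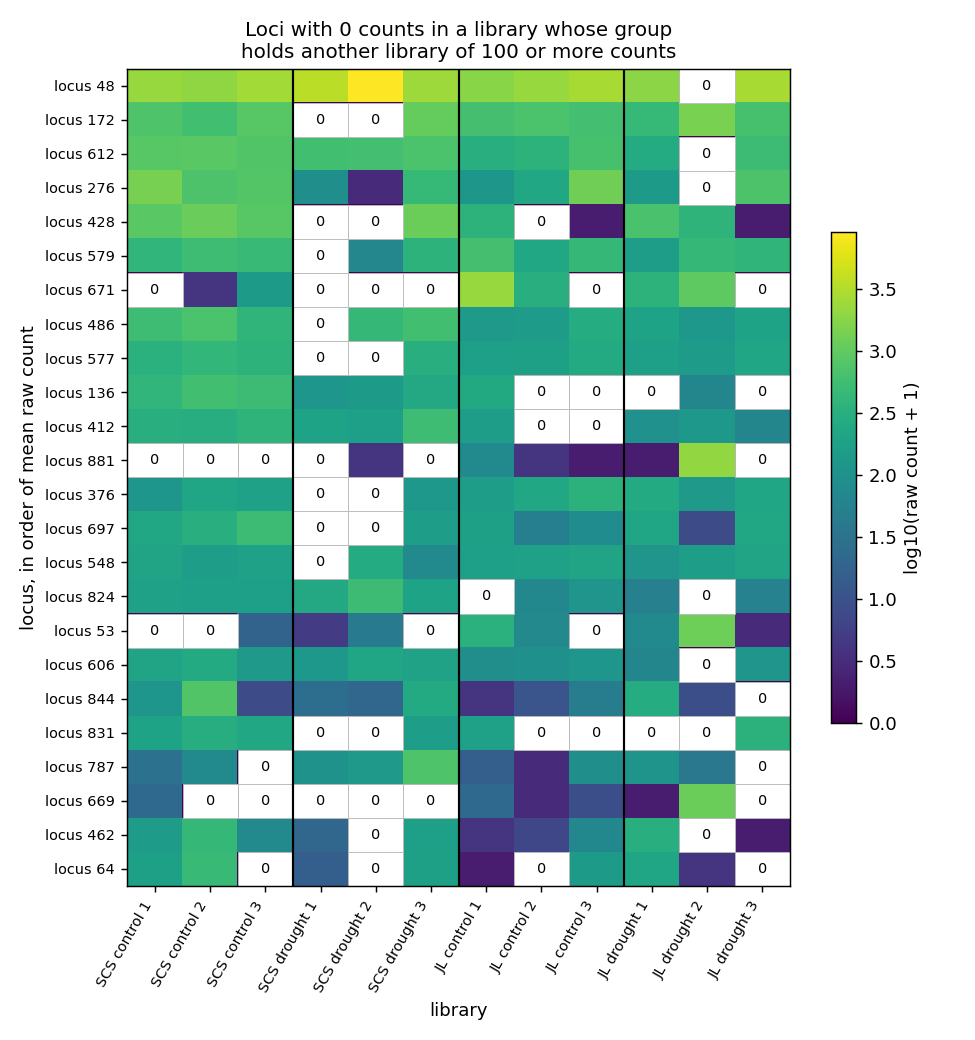
Raw counts of the 24 loci that had 0 counts in a library whose group holds another library of 100 or more, on a log10(count + 1) colour scale, with loci in rows by mean count and the 12 libraries in columns by group. White cells mark 0, and each locus has at least 1 beside a well counted library of the same group, as its choice requires, for example locus 48, at 0 in library 2 of JL drought and at 1819 or more elsewhere.

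Of these 24 loci, 12 had a nearest annotated gene with a mean count of at least 30, a limit set after values had been seen. In 4 of the 12 that gene was also at 0 in every library where the locus was at 0, in 7 it was at 0 in none of them, and in 1 it was at 0 in some. Locus 428 (chromosome 4, 62135760 to 62141679, minus strand, no match) had 883, 1138 and 860, 0, 0 and 1170, 370, 0 and 1 and 666, 377 and 1 raw counts, and the uncharacterized gene LOC110434844, 1 base away on the other strand, had 81, 118 and 73, then 0, 0 and 72, then 29, 0 and 0, then 59, 42 and 0. Both were at 0 in the same 3 libraries. Locus 548 shared its single empty library, the first of SCS drought, with the long noncoding RNA gene LOC110436190, 7 bases away, whose counts were 348 and 770 in the other SCS drought libraries. Locus 172 shared its empty libraries with LOC8064448, a disease resistance gene 7729 bases away. By contrast LOC8084883, a sugar phosphate translocator gene 118 bases from locus 48, had no library at 0.

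In SCS, the comparison of drought with control asks which loci differ with water supply in this cultivar. Of 134 tested loci, 4 rose and 11 fell at an edgeR adjusted p below 0.05, with the Benjamini-Hochberg adjustment made over the whole set of 20873 tested genes. That is 2.99% and 8.21% of the loci, against a background of 4.09% of all tested genes higher and 5.41% lower. Among annotated genes at the threshold 5.51% were higher and 7.25% lower. The median log2 fold change was -0.34 for the loci and -0.07 for all tested genes. By type, 3 of the 21 transposon-type loci fell and 0 rose, 7 of 89 loci with no match fell and 3 rose, and of 24 loci matching other proteins 1 rose and 1 fell. None of the 23 tested loci with 0 beside 100 or more in a group was called in any comparison. They were chosen for a wide spread within a group, which the test weighs against a call, so this is not a finding about them.

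The largest rise was that of locus 195 (chromosome 2, 23093050 to 23093998, minus strand, 849 bases, no match). It stood at 0.847, 0.709 and 0.625 CPM in SCS control and 637, 389 and 155 in SCS drought, while JL had 1.27, 0.167 and 0.810 in control and 0.313, 3.08 and 0.439 in drought. Only the droughted SCS libraries were high, and the other 9 were at 3.08 or less. The means were 393 ± 241 CPM in SCS drought against 0.727 ± 0.112 in SCS control (SD, n = 3). The log2 fold change was 9.06 ± 1.11 (SE, edgeR adjusted p = 0.00323). Per length the SCS drought mean was 458 ± 279 FPKM.

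Locus 361 (chromosome 4, 12145230 to 12167123, plus strand, 5161 bases) carries a BAG domain and resembles Arabidopsis BAG family regulator 6, one of the co-chaperones that bind HSP70. It had 37.7, 24.6 and 40.1 CPM in SCS control and 201, 338 and 122 in SCS drought, with no overlap, against 25.5, 73.2 and 158 in JL control and 24.9, 97.1 and 59.7 in JL drought. The JL libraries spread over a wider range than the SCS control ones. The log2 fold change in SCS was 2.69 ± 0.69 (edgeR adjusted p = 0.0368).

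The remaining rises were of loci with no protein match. Locus 324 (chromosome 3, 51157163 to 51159221, minus strand) went from 8.16, 11.1 and 7.39 CPM to 97.5, 45.8 and 27.7 (log2 fold change 2.68 ± 0.60, edgeR adjusted p = 0.0231). Locus 27 (chromosome 1, 20306849 to 20309561, plus strand) went from 8.02, 8.84 and 6.42 CPM to 25.1, 20.2 and 32.5 (log2 fold change 1.74 ± 0.48, edgeR adjusted p = 0.0488). In both, the lowest droughted library exceeded the highest control library, as the rule for naming them requires. The libraries of the 2 SCS groups did not overlap for 100% of the 15 called loci, against 99.4% of all called genes.

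Of the loci that fell, locus 404 was the most abundant (chromosome 4, 13556934 to 13563385, minus strand, 2181 bases, no match). Its level was 137, 81.9 and 242 CPM in SCS control and 6.72, 5.12 and 5.16 in SCS drought, against 283, 306 and 314 in JL control and 156, 147 and 329 in JL drought. The 3 droughted SCS libraries lay close together and far below all the others, with a mean of 5.67 ± 0.910 CPM against 154 ± 81.3 in SCS control. The log2 fold change was -4.76 ± 0.48 (edgeR adjusted p = 0.00207).

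Locus 785 (chromosome 9, 221567 to 222875, minus strand, 1110 bases) resembles a ribonuclease H protein of the kind that LINE-type retrotransposons encode. It had 4.37, 6.13 and 12.2 CPM in SCS control and 0, 0.0507 and 0 in SCS drought, where 1 count was found in all against 460 in control. The counting ratio of control to drought was 433, with an exact 95% interval of 77.3 to 17139 that covers counting error only. The fitted log2 fold change was -8.29 ± 1.06 (edgeR adjusted p = 0.00370) and depends on the prior count, as it does for locus 501.

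Locus 501 (chromosome 5, 5703358 to 5708109, minus strand, no match) had raw counts of 166, 1601 and 907 in SCS control and 0, 0 and 1 in SCS drought. The ratio was 2517 (exact 95% interval 451 to 99455), the fitted log2 fold change -10.78 ± 2.28 and the edgeR adjusted p 0.0181. It was also low in JL, with 1.70, 0 and 0.337 CPM in control and 3.75, 0 and 0.146 in drought. Its higher level was that of the SCS control libraries, which themselves ran from 7.40 to 66.7 CPM. Locus 501 thus reached the count threshold through SCS control alone. Its lower level in SCS drought, and the ratio and call given here, are in part a result of that choice.

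Locus 898 (chromosome 10, 47676471 to 47680469, minus strand, no match) fell from 29.2, 12.5 and 38.5 CPM to 3.25, 1.82 and 2.03 (log2 fold change -3.49 ± 0.59, edgeR adjusted p = 0.00817). Locus 519 (chromosome 5, 51191517 to 51199238, minus strand), which resembles the polyprotein of the tobacco copia-type retrotransposon Tnt1, fell from 6.64, 8.71 and 18.4 CPM to 0.224, 2.03 and 1.63 (log2 fold change -3.11 ± 0.71, edgeR adjusted p = 0.0238). An assembled locus with a mean count of 29.3 overlaps it on the other strand. Loci 131, 772 and 545, all with no match, fell by 3.90, 3.27 and 3.00 on the log2 scale, with edgeR adjusted p of 0.0428, 0.0327 and 0.0376.

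The 3 smaller falls followed. Locus 477 (chromosome 5, 61713549 to 61733006, plus strand) is the longest of the 135 at 19389 bases and resembles the Arabidopsis copia-type retrotransposon RE1, with integrase and reverse transcriptase domains. It had 17.4, 16.1 and 37.4 CPM in SCS control and 2.13, 10.3 and 1.68 in SCS drought (log2 fold change -2.32 ± 0.65, edgeR adjusted p = 0.0498). Locus 396 (chromosome 4, 6759793 to 6768220, minus strand, no match) fell by 1.61 on the log2 scale (edgeR adjusted p = 0.0206). Locus 568 (chromosome 6, 3627252 to 3634380, minus strand), which resembles the potato disease resistance protein RGA1, fell by 0.97 (edgeR adjusted p = 0.0469).

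**Figure D3:**
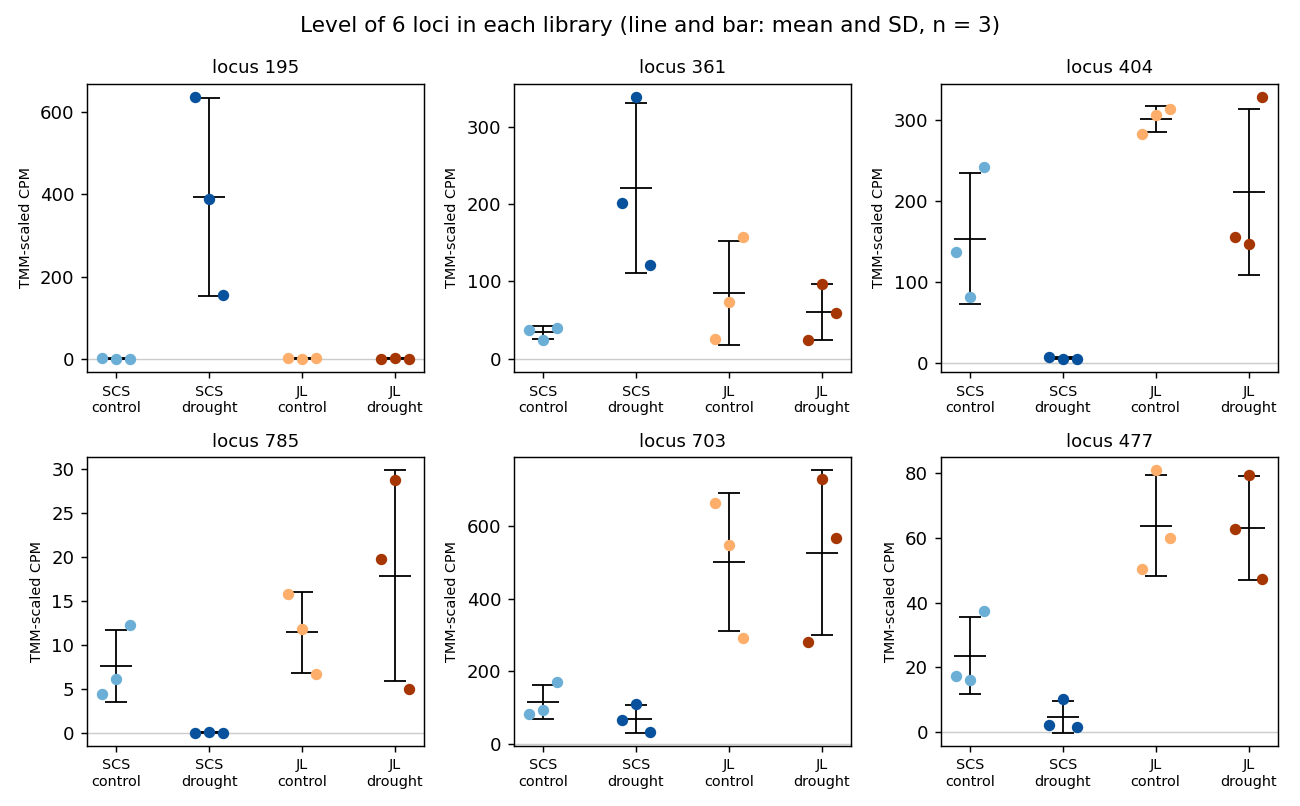
TMM-scaled CPM of 6 loci in each of the 12 libraries (points), by group, with the mean and SD of 3 libraries (line and bars). By group mean, loci 195 and 361 are highest in SCS drought and loci 404, 785 and 477 lowest there, and locus 703 is higher in every JL library than in any SCS library.

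The number of calls in SCS depended on single libraries. It was 7, 7 and 4 without SCS control 1, 2 or 3, 6, 9 and 27 without SCS drought 1, 2 or 3, 8 without JL control 2 and 10 to 18 without any of the others, and 1 without SCS drought 1 and 2 and JL drought 2 together. Loci 195, 785, 404 and 898 kept their call without any 1 library, and locus 195 also without those 3. Locus 519 lost it without SCS control 3 (edgeR adjusted p = 0.0964), and locus 501 without SCS control 3, SCS drought 1 or SCS drought 2 (up to 0.0828). Loci 361, 324, 27, 131, 772 and 545 lost it without 6, 4, 9, 9, 7 and 7 of the 12 libraries taken 1 at a time, with edgeR adjusted p up to 0.118, 0.0975, 0.174, 0.155, 0.122 and 0.112. The calls of all tested genes moved as well, from 854 higher and 1130 lower with all 12 libraries. They were 200 and 333 without SCS control 3, and 1313 and 1306 without SCS drought 3, so this dependence is not particular to the loci.

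In JL, none of the 134 loci was called between drought and control, nor was any of the 20873 tested genes (0%), and the lowest edgeR adjusted p among the loci was 1. At an unadjusted p below 0.05 there were 2 loci, 1.49% of those tested, against 3.71% of all tested genes. DESeq2 called 0 of the loci and 0.193% of all genes it tested. The median log2 fold change of the loci in JL was -0.04, with 62 positive and 72 negative. Locus 703 had 502 ± 189.7 CPM in JL control and 526 ± 226 in JL drought, and locus 477 had 63.7 ± 15.6 and 63.1 ± 16.02. Of the loci called in SCS, the JL log2 fold changes ranged from -1.04 for locus 131 to 0.95 for locus 501. These loci were chosen by their change in SCS, so a smaller range in JL is in part a result of that choice.

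The difference between the cultivars in their drought change, tested as an interaction, was called for 3 loci of 134 (2.24%), against 0.513% of all tested genes. Among annotated genes at the threshold it was 0.751%. Locus 195 was among the 3 and reached the count threshold through SCS drought alone, so the share of the loci is in part a result of the choice. Locus 785 had a log2 fold change of 0.64 ± 0.68 in JL and -8.29 ± 1.06 in SCS, a difference of 8.94 ± 1.26 (SE, edgeR adjusted p = 0.0282). In JL its libraries held 15.8, 11.8 and 6.61 CPM in control and 19.7, 28.8 and 4.98 in drought, so that it was present in all 6. For locus 404 the changes were -0.52 ± 0.41 and -4.76 ± 0.48, differing by 4.24 ± 0.60 (edgeR adjusted p = 0.0282). For locus 195 they were 0.74 ± 0.90 and 9.06 ± 1.11, differing by -8.32 ± 1.32 (edgeR adjusted p = 0.0314).

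These interaction calls depended on single libraries, as did those of all tested genes. The latter were 68 higher and 39 lower with all 12 libraries, 263 and 161 without SCS drought 3, and 6 and 2 without JL control 3. Without 1 library at a time, 0 to 9 loci were called: 9 without SCS drought 3, 4 without JL drought 2, 2 without JL drought 1, 1 without SCS control 2, JL control 1 or JL drought 3, and 0 without any of the other 6. None was called without the 3 libraries named above together. The direction of all 3 was the same in every alternative, with differences of 8.41 to 10.61 for locus 785, 3.73 to 4.58 for locus 404 and -10.04 to -7.74 for locus 195.

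**Figure D4:**
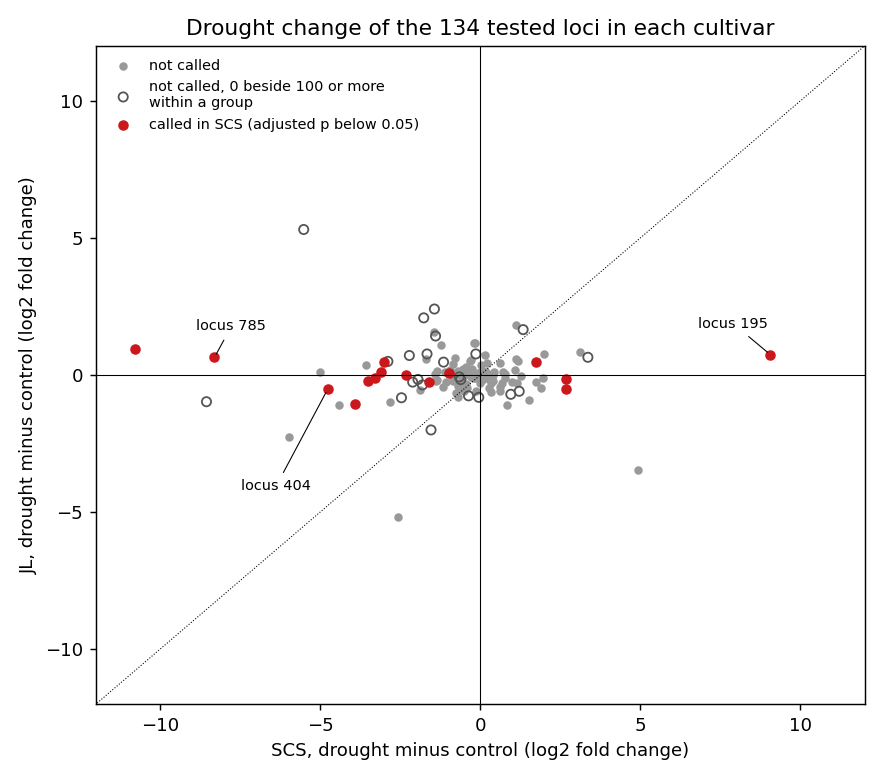
Log2 fold change of drought over control in SCS (horizontal) and JL (vertical) for the 134 tested loci, with loci called in SCS in red, loci with 0 beside 100 or more counts within a group as open circles, and the dotted line marking equal change. The red points spread from -10.78 to 9.06 along the horizontal axis and stay between -1.04 and 0.95 on the vertical one. They were chosen by their change on the horizontal axis, so the narrower vertical range is in part a result of that choice.

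Between the cultivars under a normal water supply, none of the 134 loci was called by edgeR, where 0.024% of all tested genes were, and the lowest adjusted p was 0.287. At an unadjusted p below 0.05 there were 15 loci (11.2%), against 14.4% of all tested genes. DESeq2 called 6 of the loci, against 3.01% of all genes it tested. The median log2 difference, JL minus SCS, was 0.11 for the loci and -0.04 for all tested genes. Of the 21 transposon-type loci, 18 were higher and 3 lower in JL, with a median of 0.48, none of them called. Over all 134 loci 77 were higher and 57 lower, against 9893 and 10910 of all tested genes. Among annotated genes at the threshold 6921 were higher and 6107 lower. These signs depend on the TMM scaling, and the split by type was not tested. Locus 703, although its libraries did not overlap between cultivars, had a log2 difference of 2.12 ± 0.54 (edgeR adjusted p = 0.289). Without JL control 1, edgeR called 1 locus as lower in JL.

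Under drought, 20 loci were higher and 12 lower in JL than in SCS, 14.9% and 8.96% of the 134. The background was 11.2% of all tested genes higher and 7.55% lower, and 14.9% and 8.98% among annotated genes at the threshold. In 29 of the 32 (90.6%), the libraries of the cultivars did not overlap, against 97.1% of all called genes and 97.2% of the called annotated genes at the threshold. This comparison uses the same 3 SCS drought libraries as the drought comparison in SCS, so values for a locus in both are not independent. Of the transposon-type loci 4 were higher and 0 lower, of those with no match 14 higher and 10 lower, and of those matching other proteins 2 higher and 2 lower.

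Among the loci higher in JL, locus 785 led at 17.8 ± 11.998 CPM in JL drought against 0.0169 ± 0.0293 in SCS drought (log2 difference 9.53 ± 1.09, edgeR adjusted p = 0.00138). In counts this was 656 against 1, a ratio of 1036 (exact 95% interval 185 to 40996). Locus 404 had 211 ± 103 against 5.67 ± 0.910 CPM (log2 difference 5.22 ± 0.49, edgeR adjusted p = 0.00105). The values of both in each library are given above, and neither cultivar group overlapped the other.

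Of the retrotransposon-like loci, 477 had 50.4, 80.8 and 59.9 CPM in JL control and 62.8, 79.3 and 47.3 in JL drought, all above its SCS libraries. Its log2 difference was 3.74 ± 0.69 under drought (edgeR adjusted p = 0.00616) and 1.43 ± 0.63 in control, the latter not called (edgeR adjusted p = 0.338). Locus 519 had 17.1, 23.8 and 20.1 CPM in JL drought, above every SCS drought library (log2 difference 3.96 ± 0.73, edgeR adjusted p = 0.00619). Locus 75 (chromosome 1, 23921236 to 23928437, minus strand), of 1 exon and similar to the fission yeast gypsy-type element Tf2, had 10.2, 26.7 and 20.1 CPM in JL drought and 0, 0.709 and 0 in SCS drought. Its SCS control libraries, at 3.88, 0.709 and 3.98 CPM, were below its JL control ones, at 8.24, 24.6 and 11.5. The drought difference was 6.29 ± 1.37 (edgeR adjusted p = 0.0123).

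Locus 703, the most counted of all, differed by 2.91 ± 0.55 on the log2 scale under drought (edgeR adjusted p = 0.00695), and locus 898 by 3.79 ± 0.60 (edgeR adjusted p = 0.00345). Locus 89 (chromosome 1, 56805617 to 56806410, minus strand, no match) had raw counts of 6, 3 and 218 in JL drought and 0, 2 and 1 in SCS drought. Its ratio of 119.5 (exact 95% interval 40.4 to 584) came mostly from 1 JL library. Locus 688 (chromosome 8, 30840485 to 30869402, plus strand, no match) was likewise uneven, with 7.19, 36.7 and 2.64 CPM in JL drought and 0, 0 and 0.486 in SCS drought (log2 difference 6.44 ± 1.90, edgeR adjusted p = 0.0395).

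Lower in JL were locus 195, at 1.28 ± 1.56 CPM in JL drought against 393 ± 241 in SCS drought (log2 difference -8.28 ± 1.07, edgeR adjusted p = 0.00171), and locus 342 (chromosome 3, 72853874 to 72855219, minus strand), the cysteine-rich transmembrane match. Locus 342 had 32.3, 49.4 and 10.01 CPM in SCS control and 345, 309 and 144 in SCS drought, against 8.49, 6.34 and 29.95 in JL control and 52.99, 21.1 and 5.78 in JL drought. The droughted SCS libraries were the 3 highest, and the difference was -3.32 ± 0.91 (edgeR adjusted p = 0.0304), while the change in SCS itself was not called (log2 fold change 3.12 ± 0.90, edgeR adjusted p = 0.0545).

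The other loci lower in JL differed less. Locus 454 (chromosome 5, 11613883 to 11616916, plus strand, no match, 1 exon) had 17.6, 11.7 and 13.4 CPM in SCS control and 18.6, 15.3 and 22.03 in SCS drought, against 2.12, 5.59 and 6.54 in JL control and 4.77, 4.45 and 5.12 in JL drought. It was steady within each cultivar and lower in every JL library, with log2 differences of -1.58 ± 0.39 in control (edgeR adjusted p = 0.287) and -1.96 ± 0.40 under drought (edgeR adjusted p = 0.00927). Loci 324, 858, 720, 695 and 27, none with a match, had drought differences of -2.86, -1.99, -1.95, -1.84 and -1.80, with edgeR adjusted p of 0.0112, 0.0233, 0.0150, 0.0406 and 0.0292.

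Among loci matching other proteins, 2 more were higher in JL, locus 60, which resembles a DnaJ co-chaperone of leek, and locus 96, which resembles a type 2C protein phosphatase of rice. Locus 60 (chromosome 1, 5138009 to 5143641, minus strand) had 74.1 ± 18.9 CPM in JL drought against 15.96 ± 10.8 in SCS drought (log2 difference 2.21 ± 0.56, edgeR adjusted p = 0.0223). Locus 96 (chromosome 1, 72387054 to 72392629, minus strand) had 51.2 ± 9.09 against 27.2 ± 3.25 (log2 difference 0.91 ± 0.21, edgeR adjusted p = 0.0150). Its raw counts were closer, at 717, 664 and 556 in JL drought and 551, 515 and 558 in SCS drought, so this difference depends on the TMM scaling. Lower besides 342 was locus 180 (chromosome 2, 3860609 to 3874465, minus strand), similar to the Arabidopsis protein ENHANCED DOWNY MILDEW 2, which takes part in control of a resistance gene there. Its SCS drought libraries held 26.9, 47.02 and 5.96 CPM and its JL drought ones 2.89, 8.13 and 5.71, so 1 SCS library fell within the JL range (log2 difference -2.25 ± 0.65, edgeR adjusted p = 0.0359). These 3 and locus 328 were outside the rule for named loci and were chosen after their values had been seen.

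**Figure D5:**
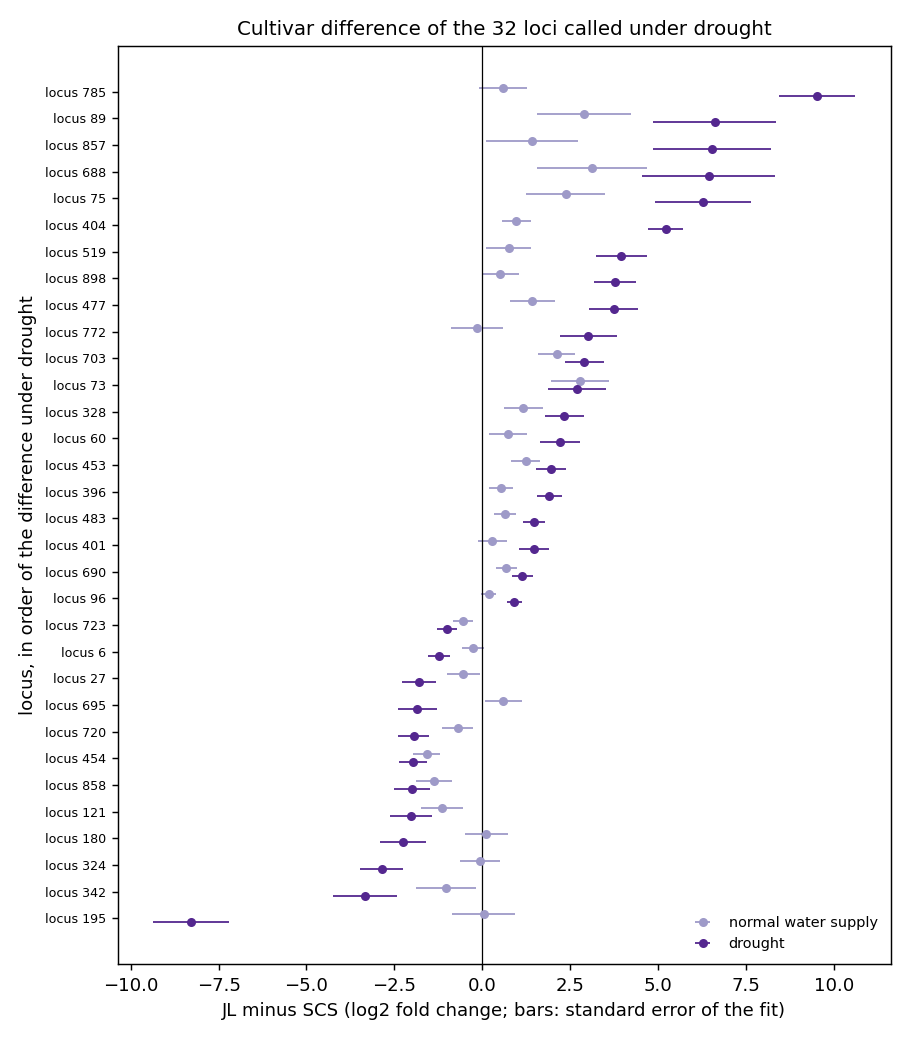
Log2 difference, JL minus SCS, of the 32 loci called under drought, shown for drought (dark) and for the normal water supply (light), with the standard error of the fit as bars. Differences under drought run from -8.28 (locus 195) to 9.53 (locus 785), while in control the same loci lie between -1.58 and 3.13 and none was called. The loci shown were chosen by their difference under drought, so the narrower range in control is in part a result of that choice.

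The count of 32 also moved with the libraries used. It was 15 without SCS drought 1, 20 without JL drought 3, 25 to 33 without any other 1 library, 9 when the 6 droughted libraries were fitted alone and 6 without SCS drought 1 and 2 and JL drought 2. Loci 785, 404, 477 and 195 kept their call in all of these. Loci 75, 519, 898, 324 and 454 kept it without any 1 library. Loci 89, 688, 342, 858, 720, 695 and 27 lost it without 4, 6, 4, 2, 1, 9 and 4 of the 12 libraries taken 1 at a time, with edgeR adjusted p up to 0.136, 0.122, 0.0823, 0.073, 0.0564, 0.125 and 0.0761. The calls of all tested genes moved as well, from 2341 higher and 1575 lower with all 12 libraries. They were 1217 and 594 without SCS drought 1, 1767 and 964 without JL drought 3, and 848 and 399 with the droughted libraries alone. They also fell without SCS drought 1 and 2 and JL drought 2 together.

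The calls of the nearest annotated genes were read beside those of the loci. Of the 15 loci called in SCS, 10 had an annotated gene within 2000 bases and 9 of those genes were tested, of which 2 were called, both in the direction of the locus, where 9.51% of all tested genes were called in either direction. Locus 501 lies 1395 bases from LOC8073648, a chloroplast fructose-bisphosphate aldolase gene of the Calvin cycle on the same strand, which fell by 5.85 on the log2 scale (edgeR adjusted p = 0.00139). In the JL libraries the 2 did not go together, with 16148 to 37081 raw counts for that gene and 0 to 48 for locus 501. Locus 27 faces LOC8067412, an uncharacterized gene on the other strand 1701 bases away, which rose by 2.28 (edgeR adjusted p = 0.0195). The 7 neighbours that were not called had log2 fold changes of -4.42 to 0.62, and 4 of these had the sign of their locus. The lowest was that of the uncharacterized gene LOC8084600, 6 bases from locus 131 on the other strand, with raw counts of 548, 356 and 1278 in SCS control and 35, 0 and 73 in SCS drought (edgeR adjusted p = 0.103). The methyl-CpG-binding protein gene LOC8076886, 325 bases from locus 772, had a log2 fold change of -0.26 (edgeR adjusted p = 0.56).

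Under drought between the cultivars, 18 of the 32 loci had a gene within 2000 bases and 14 of those genes were tested, with 2 called, both in the direction of the locus, where 18.8% of all tested genes were called in either direction. One is again LOC8067412 beside locus 27. The other is LOC8078346, which encodes the abscisic acid receptor PYL8 and abuts locus 401 (chromosome 4, 11409449 to 11421764, minus strand, no match, 615 bases) with a gap of 0 bases on the opposite strand. The gene was higher in JL by 1.88 on the log2 scale (edgeR adjusted p = 0.00569) and locus 401 by 1.47 (edgeR adjusted p = 0.0360). Locus 195, by contrast, lies 10437 bases from its nearest annotated gene, and locus 404 31183 bases from a pseudogene with no counts.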

How the data were processed

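RNA of 12 leaf libraries was extracted with TRIzol, made into strand-specific libraries and run on a NovaSeq, per the labels. StringTie 1.3.3b, STAR and HISAT2 2.0.4 appear without roles in the submitters' processing notes. Genome build and counter were not given in the sources used here. By ID, 32939 of 32940 matched table genes had the start and end of assembly Sorghum_bicolor_NCBIv3. The authors deposited raw counts per gene and FPKM. FPKM served only to compare levels between genes. Counts were scaled by TMM, filtered with filterByExpr (20873 genes left) and tested with edgeR 4.0.16 (quasi-likelihood F test, R 4.3.3) fitting 1 mean for each group to the 12 libraries together, at a Benjamini-Hochberg adjusted p below 0.05. The biological coefficient of variation was 63.3%. The pipeline was tested on simulated data. Intervals cover counting error only.

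The loci, marker lists and named loci were chosen with earlier results of these data known. Named by rule were the 10 most counted loci, per comparison up to 8 highest and 8 lowest called changes without overlap whose higher group averaged 5 CPM or more, the interaction calls, and the threshold's neighbours. Alternatives were DESeq2 1.42.0, other scaling and filters, compared libraries alone, a replicate block and leaving out libraries.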

Additional observations from a re-analysis of the deposited data

Results flagged for a closer look

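The drought change of 3 loci differed between the cultivars by the interaction test, which is what singled them out. The change in JL minus the change in SCS was 8.94 on the log2 scale for locus 785 (edgeR adjusted p = 0.0282). In SCS it went from 7.57 ± 4.12 CPM in control to 0.0169 ± 0.0293 in drought, and in JL it stood at 11.4 ± 4.60 and 17.8 ± 11.998 (SD, n = 3). For locus 404 the difference was 4.24 (edgeR adjusted p = 0.0282), with every droughted SCS library below every other library. For locus 195 it was -8.32 (edgeR adjusted p = 0.0314), with every droughted SCS library above every other library. That locus reached the count threshold through SCS drought alone. In a fit without 1 library at a time, loci 785, 404 and 195 lost this call in 8, 8 and 10 of 12 cases. The summed C4 leaf genes were lowest, and the summed seed genes highest, in the same SCS drought libraries, and their part in these differences was not tested.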

How the results depend on the processing

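Of the counts of called loci, 15 in SCS and 32 between cultivars under drought became 30 and 49 with DESeq2, which also called 11 loci in the interaction and 6 between cultivars in control, against 3 and 0. Over all genes it also called more, 2025 higher and 2016 lower in SCS against 854 and 1130 by edgeR. Between cultivars under drought it called 3302 and 2706 against 2341 and 1575, and in the interaction 783 and 546 against 68 and 39. No filter, a stricter one, and RLE or upper-quartile scaling gave 12 to 16 called loci in SCS, 28 to 35 between cultivars under drought and 3 in the interaction. Fits of the compared libraries alone gave 16 in SCS and 9 between cultivars under drought. Upper-quartile scaling moved the median log2 difference of all genes between cultivars under drought from 0.03 to -0.10 and the calls there from 20 higher and 12 lower to 18 and 14. Leaving out each replicate in turn gave 4 to 27 in SCS, 0 to 9 in the interaction, 0 to 1 between cultivars in control and 15 to 33 between cultivars under drought. Leaving out SCS drought 1 and 2 and JL drought 2 together, an alternative chosen after seeing the data, gave 1, 0, 0 and 6 in that order, and leaves 1 SCS drought library, assumed to vary like the other groups. In that last setting the calls of all tested genes also fell in SCS, in the interaction and between cultivars under drought, so the drop is not particular to the loci. The cause of these changes was not tested, and 0 loci were called in JL under every setting run.

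The replicate numbers did not pair the libraries, since deviations of same-numbered libraries had correlations of -0.491 to 0.383. With a replicate block the counts were 13 in SCS, 0 in JL, 0 in the interaction, 0 between cultivars in control and 24 between cultivars under drought. Fewer of all tested genes were called as well, 572 higher and 827 lower in SCS. These were 7 and 10 in the interaction and 1755 and 993 between cultivars under drought. Over 31 calls of named loci and all settings, 467 values kept their call, 149 lost it and 0 reversed.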

Other observations

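Of the loci matching other proteins, 2 resemble the rice protein LTI6B, a small hydrophobic membrane protein of a family known for induction by cold, salt and drought. They were chosen after their values had been seen. Locus 255 (chromosome 3, 13187940 to 13189259, plus strand) had 17.7, 16.97 and 17.5 CPM in SCS control, 22.7, 20.98 and 21.7 in SCS drought, 16.99, 21.3 and 21.5 in JL control and 11.2, 8.56 and 19.03 in JL drought. Its SCS drought libraries lay above those of SCS control without overlap, but the change was not called (log2 fold change 0.33 ± 0.29, edgeR adjusted p = 0.514). Locus 749 (chromosome 9, 3303613 to 3309179, plus strand) had 16.1, 61.5 and 1.71, 30.2, 48.2 and 94.8, 5.35, 1.75 and 17.4 and 42.1, 44.1 and 0.952 CPM in the same groups. Its libraries spread widely within 3 of the 4 groups, and its change in SCS was 1.13 ± 1.32 (edgeR adjusted p = 0.634).

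Of the others, 2 loci resemble small subunits of the mitochondrial cytochrome b-c1 complex, which passes electrons to cytochrome c. Locus 419 (chromosome 4, 52251016 to 52254511, minus strand) had 22.6 ± 8.70, 25.9 ± 11.6, 21.5 ± 2.16 and 23.1 ± 6.59 CPM in SCS control, SCS drought, JL control and JL drought, and locus 235 (chromosome 2, 76622024 to 76624003, minus strand) had 22.4 ± 5.73, 28.4 ± 12.7, 18.9 ± 3.21 and 19.1 ± 2.02. Both were counted in every library and neither was called in any comparison. Locus 610, which resembles an auxin-responsive SAUR protein, had 0.0560, 20.9 and 5.52 CPM in the 3 SCS drought libraries and 8.29, 6.30 and 7.33 in SCS control.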
